A study of Mus musculus with 9 samples.

Results

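The 38 genes described here mark dividing cells and neural progenitors: 7 cyclin and CDK genes, 6 of mitotic kinases and the spindle checkpoint, 8 of the spindle, kinetochore and mitotic chromosome, 7 of the replication helicase and clamp, 3 of nucleotide supply and 7 of neural progenitor identity. They were taken by symbol from a table of 24054 gene rows, with the condition that a gene had a value above 0.5 in at least 3 of 9 libraries. All 38 met it, as did 13853 genes in the whole table. The gene nearest to that limit was Eomes, whose third-highest value was 0.552. The libraries held polyadenylated RNA of primary cortical neurons from wild-type C57BL/6 mice, taken for the experiment after 6 days in culture. There were 3 groups of 3 libraries. The normoxia group was kept in normal oxygen as the control, the hypoxia group spent 7 hours in 0.2% oxygen, and the third spent the same 7 hours in 0.2% oxygen with 10 nM T3 (triiodothyronine, the active thyroid hormone) in the medium. Libraries are called here by group and column number, 1 to 3 for normoxia, 7 to 9 for hypoxia and 11 to 13 for hypoxia with T3. The question of the study was how low oxygen, and T3 during low oxygen, alter gene expression in these neurons.

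A cortical neuron is a cell that has left the cell cycle for good. In the developing cortex the dividing cells are radial glia, which carry Pax6, Sox2, nestin and vimentin and are held in the progenitor state by Notch signals through Hes genes, and the intermediate progenitors with Eomes that they give rise to. Cortical cultures can also hold glial precursors that go on dividing, and vimentin, nestin and Sox2 are made by astrocytes and oligodendrocyte precursors too. Transcripts of replication genes peak as cells enter S phase and those of mitotic genes peak in G2 and mitosis.

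Each value is a TMM-normalized CPM, reads of a gene relative to a library size that the authors scaled. The libraries held 17182339 (hypoxia 7) to 33937842 (normoxia 2) recovered reads, so that 1 read was worth 0.0302 to 0.0565. Every value of the 38 genes was a whole number of reads, and the fewest were 3 reads, for Hes5 in hypoxia 7. The 12 neuron markers were above 0.5 in every library and summed to 5640 to 7822 per library, against 254 to 758 for all 38 genes together. Reads of Rn45s, the precursor of ribosomal RNA, made up 3.25% to 4.21% of the normoxia columns, 1.04% to 1.33% of the hypoxia columns and 1.04% to 2.65% of the T3 columns. This difference lies between the groups compared below, and its part in the results was not tested.

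Divided by exonic length, levels over the 9 libraries ran from 38.5 per kilobase for Vim, the intermediate filament vimentin, to 0.116 per kilobase for Eomes, the transcription factor of intermediate progenitors. Next to Vim stood Pcna, the sliding clamp of DNA polymerase, at 36.4 per kilobase, and Ccnd2, the G1 cyclin D2, at 10.0. Mki67, the gene of the Ki-67 proliferation antigen, reached 1.92 and Cdk1, the mitotic kinase, 0.628. Among progenitor genes, Sox2 (7.95) and Nes, the filament nestin (5.53), stood well above the cortical factor Pax6 (0.239).

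The 3 libraries of a group differed from each other more in these genes than in the rest of the table. The median SD of log2(value + 1) across the 38 genes was 0.56 (normoxia), 0.46 (hypoxia) and 0.25 (T3), against 0.10 in each group over all 13853 genes. The library that was lowest or highest was nearly always the same. Normoxia 1 was the lowest of its group for 36 of the 38 (31.7% of all genes) and normoxia 3 the highest for 36 (32.5% of all genes). The exceptions were Ccne1 and Eomes at the low end and Ccne1 and Birc5 at the high end. Hypoxia 7 was the lowest of its group for 35 (33.9% of all genes) and hypoxia 9 the highest for 34 (35.6%). With T3, library 13 was the lowest for 35 (37.0%) and library 12 the highest for 33 (30.4%). The summed level of the 38 was 254, 369 and 594 in the normoxia libraries, 401, 635 and 758 in hypoxia and 574, 715 and 494 with T3. Hypoxia 7 was thus near normoxia 2, and normoxia 3 was above hypoxia 7, T3 11 and T3 13.

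**Figure D1:**
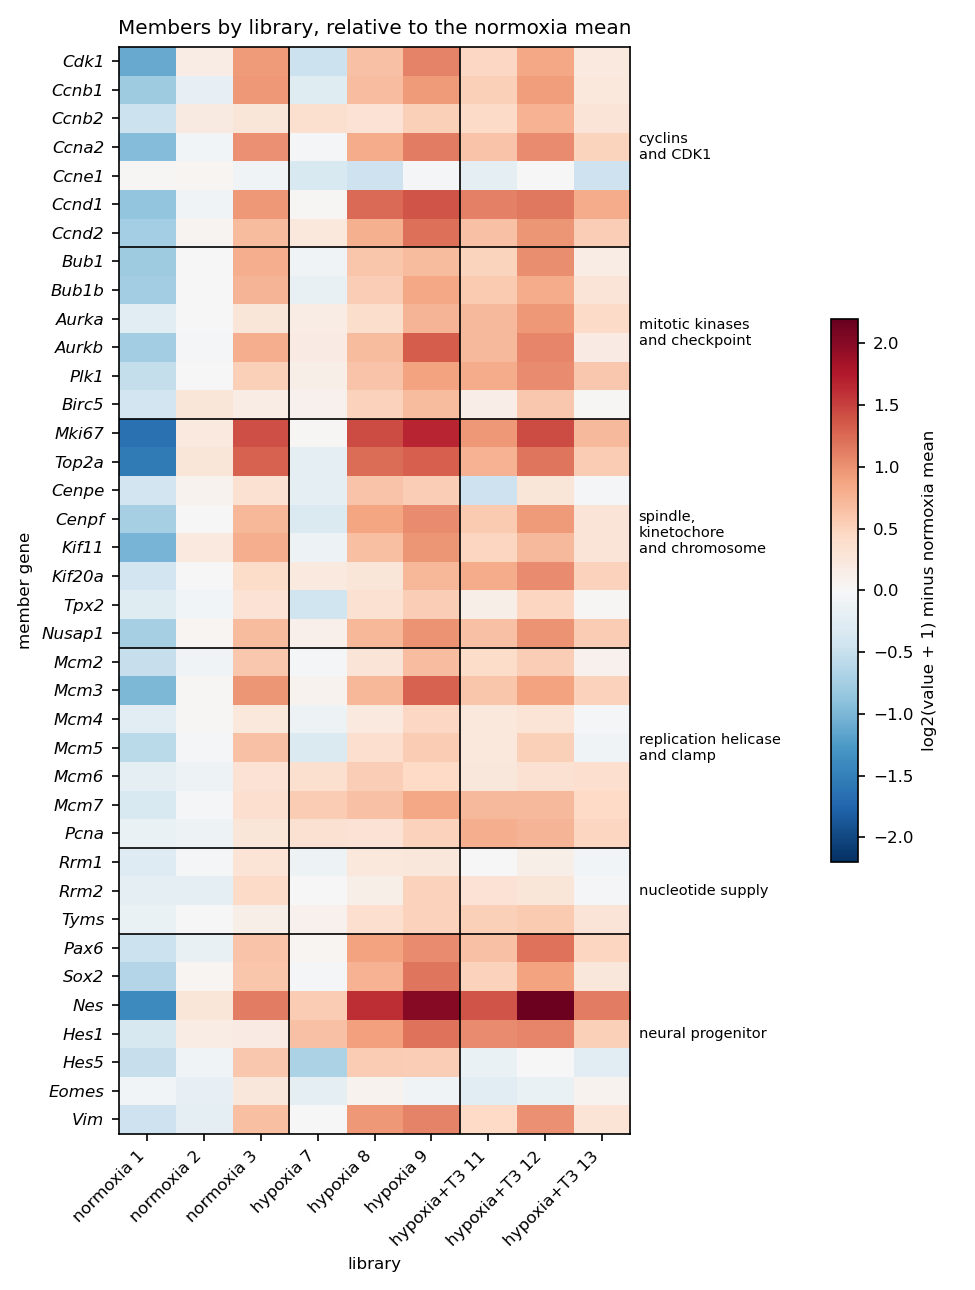
The 38 genes (rows, by role) in the 9 libraries (columns). Colour shows log2(value + 1) minus the mean of the normoxia libraries, red above and blue below. Normoxia 1 is blue in nearly every row, normoxia 3 is red for most, and hypoxia 7 is paler than hypoxia 8 and 9.

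Mitotic and progenitor genes spread widely. Mki67 stood at 2.37, 11.2 and 27.2 in normoxia, 9.72, 27.4 and 32.7 in hypoxia, and 19.4, 27.3 and 16.2 with T3. Top2a, the topoisomerase that untangles mitotic chromosomes, stood at 2.41, 11.1 and 23.8 in normoxia, 7.799, 22.5 and 24.04 in hypoxia, and 16.1, 21.9 and 13.8 with T3. In both, normoxia 1 was the lowest of all 9 libraries, normoxia 3 lay within the range of the hypoxia libraries, and the groups overlapped. Cdk1 had 0.291, 2.14 and 4.36 in normoxia, 1.02, 3.38 and 4.95 in hypoxia, and 2.81, 4.03 and 2.26 with T3, a 14.96-fold range within normoxia, where its lowest value rested on 7 reads. Replication genes varied less: the median ratio of the highest to the lowest normoxia library was 1.69 for the helicase and clamp genes and 1.52 for nucleotide supply, against 3.96 for cyclins and CDK1, 3.62 for spindle genes, 3.60 for progenitor genes and 3.38 for mitotic kinases. Over all genes it was 1.16. Across hypoxia libraries Hes5, a Notch target in radial glia, had the widest ratio, 10.6, on a low level (0.333, 0.785 and 1.86 in normoxia, 0.1695, 1.79 and 1.75 in hypoxia, and 0.7105, 0.898 and 0.621 with T3). Of the genes that broke the shared order, Ccne1, cyclin E1 of the G1/S step, had 7.29, 7.43 and 6.72 in normoxia, 5.48, 4.93 and 7.02 in hypoxia, and 6.11, 7.12 and 4.91 with T3. Eomes had 0.416, 0.302 and 0.7504 in normoxia, 0.283, 0.552 and 0.406 in hypoxia, and 0.249, 0.333 and 0.556 with T3. In Ccne1 normoxia 3 was the lowest of its group, and in Eomes normoxia 2 was.

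Markers of astrocytes and oligodendrocyte precursors moved with the 38 genes across the libraries, while ventral progenitor and oligodendrocyte markers did not. Relative to the normoxia mean on the log2(value + 1) scale, the mean of the 38 was -0.60, 0.01 and 0.59 in normoxia 1 to 3, 0.00, 0.61 and 0.85 in hypoxia 7 to 9, and 0.49, 0.77 and 0.29 in T3 11 to 13. The 7 oligodendrocyte precursor markers had means of -0.997, 0.09 and 0.91, then -0.11, 1.33 and 1.63, then 0.78, 1.41 and 0.77. The 10 astrocyte markers that passed the filter had -0.80, 0.10 and 0.70, then 0.09, 1.14 and 1.65, then 0.85, 1.47 and 0.65. The order of the libraries within each group was thus the same for the 38 genes, the astrocyte markers and the oligodendrocyte precursor markers. The 4 ventral progenitor markers that passed the filter had another order, at 0.19, 0.10 and -0.28, then 0.35, -0.23 and 0.06, then 0.11, -0.24 and -0.18. So did the 4 oligodendrocyte markers that passed, at -0.04, 0.08 and -0.04, then 0.23, 0.41 and 0.12, then 0.01, 0.23 and 0.13. The means of the neuron markers lay between -0.23 and 0.07. Their summed level did not overlap normoxia, at 7273 to 7822 (normoxia), 5709 to 6163 (hypoxia) and 5640 to 5758 (T3). In limma (adjusted p under 0.05) 4 of the 12 were lower in hypoxia than in normoxia (Tubb3, Syt1, Rbfox3 and Elavl4) and 1, Nefl, higher. Over all genes tested 17.9% were called lower and 13.6% higher. Nefl lost its call with no variance trend, or without normoxia 1, normoxia 2 or hypoxia 9. With columns scaled to equal sums, or without normoxia 1, the lower ones were 2, Tubb3 and Syt1. The summed level of the 12 astrocyte markers was 215 to 330 (normoxia), 246 to 460 (hypoxia) and 317 to 431 (T3), with S100b and Gjb6 below 0.5 in every library, and that of the oligodendrocyte precursor markers was 149 to 345, 168 to 411 and 227 to 335. Summed levels of 6 ventral progenitor markers were 16.9 to 25.4, 18.2 to 30.6 and 19.4 to 27.5, with Gsx2 and Nkx2-1 below 0.5 throughout. Microglia markers summed to at most 2.25 and endothelial markers to at most 1.43 in any library. Whether the 38 genes vary because the share of dividing or glial cells varied was not tested, and in bulk RNA more cells of a type and more RNA per cell cannot be told apart.

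**Figure D2:**
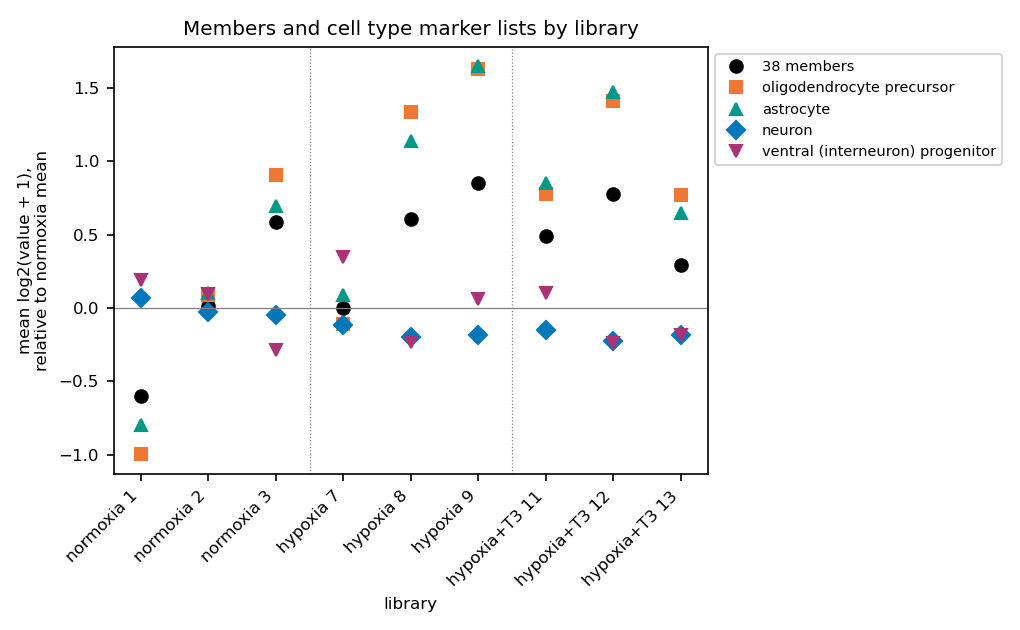
Mean log2(value + 1) of the 38 genes and of 4 marker lists in each library, relative to the normoxia mean. Symbols are list means over genes that passed the filter. The 38 genes, astrocyte and oligodendrocyte precursor markers share the order of libraries within each group, while the neuron marker means lie between -0.23 and 0.07. The ventral progenitor markers have another order.

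Because these genes moved together across libraries, their promoters were searched for 4 short motifs. RefSeq (GRCm38.p6) gave a promoter, from 250 bases before to 50 after the start site, for 30 of the 38. Ccna2, Ccnd1, Ccnd2, Aurkb, Kif20a, Tpx2, Mcm4 and Hes1 had no entry. The motifs were the CCAAT box (CCAAT) bound by NF-Y, the cell cycle homology region (TTTGAA) bound by the DREAM and MuvB complexes, the E2F site (TTTCCCGC or TTTGGCGC) of S-phase genes, and the core of the hypoxia response element (ACGTG or GCGTG). Both strands were read, and a match might share letters with a match to another motif. CCAAT was found for 25 of the 30 (83.3%, against 43.2% of 10361 tested genes with an entry), and 2 or more copies for 16 (53.3% against 16.4%). TTTGAA was found for 11 (36.7% against 13.8%): Aurka, Bub1b, Ccnb2, Cdk1, Cenpf, Kif11, Mki67, Plk1 and Top2a among mitotic genes, and Mcm2 and Sox2. The E2F letters were found for Mcm3, Mcm5, Mcm6 and Mcm7, which are 4 of the 30 (13.3% against 3.33%) and belong to the replication group. The hypoxia response core was found for 19 (63.3% against 67.7%). The 4 promoters below are those of replication genes that were higher in hypoxia (Mcm7 and Pcna) and of mitotic genes with a wide spread (Cdk1 and Mki67). The motifs did not divide the genes in this way. Mcm3 and Mcm5 held E2F letters and were not called, and Pcna held none. Aurka and Plk1 held TTTGAA with ratios of the highest to the lowest normoxia library of 1.57 and 2.45, while Mcm3 had 7.02. A link between motifs and levels was not tested. Capitals mark matches to the CCAAT box, which reads ATTGG where it lies on the other strand, matches to TTTGAA on the printed strand, and the E2F match of Mcm7, read on the other strand. All 4 lie on the minus strand and are written 5′ to 3′ in the direction of transcription: Mcm7, first of its 2 entries, at chr5:138171834-138172133, Pcna at chr2:132253131-132253430, Cdk1 at chr10:69352863-69353162 and Mki67 at chr7:135716330-135716629.
Mcm7: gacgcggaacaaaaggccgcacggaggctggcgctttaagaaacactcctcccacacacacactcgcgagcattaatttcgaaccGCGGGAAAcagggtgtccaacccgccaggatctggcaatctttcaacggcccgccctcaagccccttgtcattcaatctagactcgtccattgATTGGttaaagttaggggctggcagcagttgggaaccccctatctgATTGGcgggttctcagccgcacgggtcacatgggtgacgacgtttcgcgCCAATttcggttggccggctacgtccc
Pcna: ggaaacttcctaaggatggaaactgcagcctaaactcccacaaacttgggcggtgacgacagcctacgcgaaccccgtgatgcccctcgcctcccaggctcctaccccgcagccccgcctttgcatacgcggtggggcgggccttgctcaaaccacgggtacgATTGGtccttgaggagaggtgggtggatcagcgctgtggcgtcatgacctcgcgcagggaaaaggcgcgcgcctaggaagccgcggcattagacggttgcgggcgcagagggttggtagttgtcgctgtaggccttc
Cdk1: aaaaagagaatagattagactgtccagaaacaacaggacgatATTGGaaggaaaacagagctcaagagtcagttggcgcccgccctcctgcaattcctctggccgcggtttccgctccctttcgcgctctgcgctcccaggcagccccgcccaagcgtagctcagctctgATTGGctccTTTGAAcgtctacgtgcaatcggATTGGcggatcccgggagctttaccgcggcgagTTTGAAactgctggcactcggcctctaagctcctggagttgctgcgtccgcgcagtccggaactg
Mki67: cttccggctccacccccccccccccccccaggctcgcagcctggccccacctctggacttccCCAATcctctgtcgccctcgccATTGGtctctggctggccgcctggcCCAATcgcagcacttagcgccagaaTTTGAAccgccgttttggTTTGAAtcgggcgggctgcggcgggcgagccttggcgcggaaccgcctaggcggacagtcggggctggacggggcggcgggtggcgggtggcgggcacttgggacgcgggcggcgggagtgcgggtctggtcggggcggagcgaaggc
Mcm7 held 3 CCAAT boxes and 1 E2F match, and Pcna held 1 CCAAT box. Cdk1 and Mki67 each held 3 CCAAT boxes and 2 copies of TTTGAA. The ATTGG and TTTGAA of Cdk1 stand a few bases apart. A match is a run of letters and says nothing of whether a factor was bound in these cells.

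Among the 38, a few replication genes and Hes1 were higher in hypoxia than in normoxia. No mitotic gene among the 38 differed by enough, against the spread of the libraries, to pass the test. Against normoxia 4 of the 38 genes were higher in hypoxia (limma, adjusted p under 0.05) and 0 were lower. Over all genes tested 13.6% were called higher and 17.9% lower, so with all 9 libraries the share of higher calls among the 38 was near that background. The log2 change was above 0 for 36 of the 38, with a median of 0.44, beside 50.9% and a median of 0.01 over all genes. The size of that median rested on single libraries. Without normoxia 1 it was 0.18, with 31 above 0, and without normoxia 3 it was 0.81. The median standard error was 0.31 for the 38 and 0.10 for all genes. At an unadjusted p under 0.05 there were 8 higher and 0 lower, beside 2774 higher and 3211 lower of all 13853 genes. No label says if replicate libraries are from different cultures, so the p-values weigh differences against a spread between libraries that may be technical.

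The genes that rose were 3 of the 7 helicase and clamp genes and 1 of the 7 progenitor genes. Mcm7, a subunit of the MCM2-7 helicase, stood at 11.4, 14.4 and 19.2 in normoxia, 22.04, 23.4 and 27.4 in hypoxia, and 24.8, 24.8 and 20.2 with T3. All 3 hypoxia values were above all 3 normoxia values, and the log2 change was 0.68 ± 0.16 SE, adjusted p = 0.0083. Mcm6, another subunit of that ring, stood at 9.12, 9.76 and 13.6 in normoxia, 13.9, 15.9 and 14.8 in hypoxia, and 12.9, 13.7 and 14.2 with T3. Its normoxia 3 came close to hypoxia 7 without reaching it, and the log2 change was 0.44 ± 0.13 SE, adjusted p = 0.026. Pcna stood at 37.8, 38.7 and 50.9 in normoxia, 53.3, 52.9 and 60.2 in hypoxia, and 74.03, 71.2 and 58.5 with T3. Its hypoxia values again lay above every normoxia value, and the log2 change was 0.39 ± 0.12 SE, adjusted p = 0.028. Hes1, the Notch effector that keeps progenitors from differentiating, had the largest log2 change of the 4. It stood at 0.208, 0.725 and 0.7504 in normoxia, 1.41, 1.86 and 2.52 in hypoxia, and 2.17, 2.23 and 1.21 with T3, from 5 reads in normoxia 1 upward. Every hypoxia and T3 value was above every normoxia value, and the log2 change was 0.91 ± 0.20 SE, adjusted p = 0.0068. The other helicase subunits Mcm2, Mcm3, Mcm4 and Mcm5 did not pass the test, and all of them overlapped between the groups.

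No cyclin, mitotic kinase, spindle or nucleotide gene among the 38 passed the test in hypoxia against normoxia. The median log2 change was 0.45 for the 7 cyclin and CDK genes, 0.43 for the 6 mitotic kinase and checkpoint genes, 0.52 for the 8 spindle genes and 0.21 for the 3 nucleotide genes. Mki67 had a mean of 13.6 ± 12.6 in normoxia and 23.3 ± 12.03 in hypoxia (mean ± SD, n = 3), with a log2 change of 1.05 ± 0.63 SE, adjusted p = 0.23. Top2a had means of 12.4 ± 10.8 and 18.1 ± 8.96, with a log2 change of 0.78 ± 0.59 SE, adjusted p = 0.34. Ccnd1, cyclin D1, which carries growth signals into G1, stood at 6.16, 11.4 and 24.4 in normoxia, 12.4, 29.97 and 33.1 in hypoxia, and 27.2, 28.3 and 22.01 with T3, with a log2 change of 0.88 ± 0.42 SE, adjusted p = 0.13. Hypoxia 7 lay within the normoxia range for Ccnd1, as for 29 of the 38. Ccnd2 stood at 26.3, 46.7 and 72.8 in normoxia, 53.1, 78.01 and 105 in hypoxia, and 70.5, 88.3 and 65.6 with T3, with a log2 change of 0.75 ± 0.31 SE, adjusted p = 0.09. Ccnb2, the mitotic cyclin B2, did not overlap between the groups (0.4996, 1.39 and 1.501 in normoxia, 1.64, 1.59 and 1.99 in hypoxia, and 1.78, 2.53 and 1.54 with T3), yet missed the threshold (log2 change 0.40 ± 0.20 SE, adjusted p = 0.15). With it, 5 of the 38 genes had all hypoxia values above all normoxia values, against 20.6% of all genes, and 0 had all values below, against 25.6%. Normoxia 1 was below all hypoxia libraries for 34 genes and normoxia 3 lay within the hypoxia range for 27. These counts, and the 29 for hypoxia 7, were made for the 38 only. Without a share over all genes they do not show whether the 38 stand out. Ccne1 had the lowest log2 change of the 38 (log2 change -0.27 ± 0.15 SE, adjusted p = 0.18).

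The other mitotic genes without a call also overlapped between normoxia and hypoxia, Ccnb2 aside, on lower mean CPM than Mki67. Divided by exonic length some stood above Mki67 (1.92 per kilobase), such as Tpx2 (2.87) and Ccna2 (2.07). Ccna2, cyclin A2 of S phase and G2, ranged over 1.96 to 10.5 in normoxia, 4.52 to 11.5 in hypoxia, and with T3 7.03 to 10.7. Ccnb1, the mitotic cyclin B1, ranged over 1.33 to 6.68 in normoxia, 2.32 to 6.62 in hypoxia, and with T3 3.696 to 6.55. Aurkb, the kinase of the chromosomal passenger complex, ranged over 0.333 to 2.97 in normoxia, 1.58 to 4.71 in hypoxia, and with T3 1.57 to 3.76. In these 3 hypoxia 7 lay between normoxia 1 and normoxia 3. The checkpoint kinase genes Bub1 and Bub1b ranged over 0.375 to 3.14 in normoxia, 1.24 to 2.84 in hypoxia, and with T3 1.67 to 3.86, and over 1.29 to 5.57 in normoxia, 2.49 to 6.01 in hypoxia, and with T3 3.76 to 5.82. Birc5, survivin, a partner of Aurkb, ranged over 1.67 to 3.29 in normoxia, 2.83 to 4.79 in hypoxia, and with T3 2.65 to 4.39. The kinetochore genes Cenpe and Cenpf ranged over 3.37 to 6.43 in normoxia, 4.07 to 8.104 in hypoxia, and with T3 3.27 to 6.02, and over 3.16 to 10.4 in normoxia, 4.52 to 13.2 in hypoxia, and with T3 7.46 to 12.2. Kif11, the motor that separates spindle poles, and the microtubule proteins Tpx2 and Nusap1 overlapped between the groups too, with Tpx2 the highest of the 3 and ranging over 9.16 to 14.3 in normoxia, 7.97 to 16.7 in hypoxia, and with T3 11.4 to 15.9. In Tpx2 hypoxia 7 was below every other library, and in Cenpe T3 11 was below every normoxia and hypoxia library.

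Helicase subunits and ribonucleotide reductase genes that were not called overlapped over most of their ranges. Mcm2 ranged over 6.04 to 14.1 in normoxia, 8.82 to 15.1 in hypoxia, and with T3 9.78 to 13.7. Mcm3, the lowest of the helicase genes, ranged over 0.916 to 6.43 in normoxia, 2.995 to 8.405 in hypoxia, and with T3 4.42 to 6.05. Mcm4 ranged over 9.03 to 13.01 in normoxia, 10.1 to 15.5 in hypoxia, and with T3 10.7 to 13.8, and Mcm5 over 4.45 to 11.9 in normoxia, 5.59 to 11.1 in hypoxia, and with T3 6.804 to 10.9. Rrm1 and Rrm2, the large and small subunits of the enzyme that makes deoxyribonucleotides, ranged over 20.4 to 30.9 in normoxia, 23.001 to 29.9 in hypoxia, and with T3 23.8 to 27.2, and over 14.4 to 22.9 in normoxia, 16.95 to 24.2 in hypoxia, and with T3 16.2 to 21.3. In Rrm1 normoxia 3 was the highest of the 9 libraries, and in Mcm5 it was too.

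Among progenitor genes Nes had the largest change on the log2(value + 1) scale, which understates changes of low genes such as Hes1. It also had a wide spread, at 4.496, 16.5 and 30.9 in normoxia, 20.4, 43.9 and 57.4 in hypoxia, and 36.8, 63.8 and 30.8 with T3. Its hypoxia 7 value lay below normoxia 3, and the log2 change was 1.40 ± 0.55 SE, adjusted p = 0.074. Pax6, the dorsal cortical factor, stood at 0.291, 0.604 and 1.75 in normoxia, 0.848, 2.31 and 2.68 in hypoxia, and 1.78, 3.09 and 1.47 with T3, with a log2 change of 0.66 ± 0.32 SE, adjusted p = 0.13. Sox2, the pluripotency and progenitor factor, stood at 6.91, 11.7 and 17.9 in normoxia, 11.2, 20.1 and 27.1 in hypoxia, and 16.6, 21.9 and 13.8 with T3, with a log2 change of 0.64 ± 0.33 SE, adjusted p = 0.16. Vim stood at 42.9, 50.7 and 93.6 in normoxia, 58.7, 114 and 127 in hypoxia, and 79.7, 119.9 and 73.2 with T3, with a log2 change of 0.68 ± 0.32 SE, adjusted p = 0.13. In Pax6, Sox2 and Vim normoxia 1 was the lowest and hypoxia 9 the highest of its group, and the groups overlapped. Hes5 and Eomes did not pass the test either, and their values overlapped.

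Which genes were called depended on single libraries. The count of 4 became 2 without normoxia 1, 2 without normoxia 2, 2 without hypoxia 9, 11 without hypoxia 7 and 16 without normoxia 3, and it stayed at 4 when normoxia 1 and hypoxia 7 were both left out, where the genes called were Hes1, Mcm7, Ccnd1 and Nes. Over all genes 1439 of 13808 were higher without normoxia 1, 1407 of 13793 without normoxia 2 and 1171 of 13780 without hypoxia 9. The counts were 1600 of 13800 without hypoxia 7, 1642 of 13786 without normoxia 3 and 1187 of 13750 with both out. Without normoxia 3 only 37 of the 38 passed the filter. The share among the 38 was thus above that of all genes without hypoxia 7 or normoxia 3. The Hes1 and Mcm7 calls held with each library left out. Mcm6 lost its call without normoxia 1 (adjusted p = 0.093), normoxia 2 (0.086), hypoxia 8 (0.078) or hypoxia 9 (0.063), and Pcna without normoxia 1 (0.0996), normoxia 2 (0.096) or hypoxia 9 (0.101), and also with no filter on low values (0.054) or no variance trend (0.053), either of which made the count 3. The log2 change of Cdk1 was 0.42 with all libraries and -0.13 without normoxia 1.

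**Figure D3:**
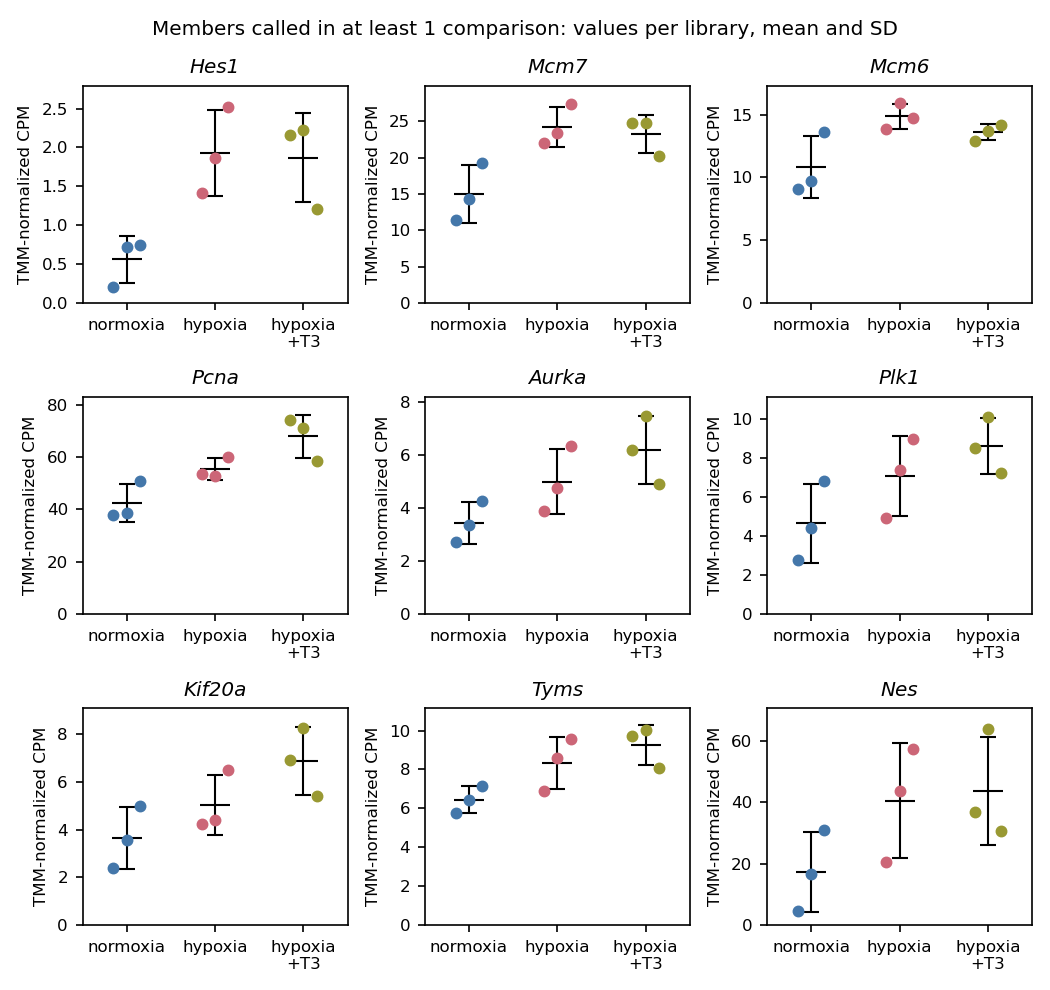
Values in every library for the 9 genes called in at least 1 comparison. Points are libraries in column order, horizontal bars the group mean and whiskers the SD (n = 3), on axes from 0 in TMM-normalized CPM. Hes1, Mcm7, Mcm6 and Pcna have every hypoxia value above every normoxia value, while Nes overlaps.

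Other cell cycle genes, from lists chosen by function with earlier results of these data known, were counted in the same comparison. Of 32 further replication and G1/S genes that passed the filter, 8 were higher and 0 lower in hypoxia, beside 13.6% and 17.9% of all genes, with a median log2 change of 0.23. They included Dut, which clears dUTP (log2 change 0.50 ± 0.08 SE, adjusted p = 0.001), Slbp, which binds histone mRNA (log2 change 0.50 ± 0.10 SE, adjusted p = 0.0045), the S-phase activator E2f1 (log2 change 0.34 ± 0.08 SE, adjusted p = 0.0081) and the origin-firing kinase Cdc7 (log2 change 0.36 ± 0.11 SE, adjusted p = 0.024). Of 36 further G2/M genes 3 were higher and 0 lower, a smaller share than over all genes in both directions, with a median of 0.34: the chromokinesin Kif4 (log2 change 0.98 ± 0.24 SE, adjusted p = 0.011), the condensin subunit Ncapd2 (log2 change 0.37 ± 0.10 SE, adjusted p = 0.014) and securin, Pttg1 (log2 change 0.41 ± 0.12 SE, adjusted p = 0.027). Of 10 other G1 drivers, Ccnd3 was higher (log2 change 0.44 ± 0.11 SE, adjusted p = 0.012) and Mycn lower (log2 change -0.32 ± 0.06 SE, adjusted p = 0.0036). Cdc7, Ncapd2 and Pttg1 lost their calls without normoxia 1 (adjusted p = 0.078, 0.052 and 0.091) and without hypoxia 9 (0.082, 0.056 and 0.087), Ncapd2 and Pttg1 also without hypoxia 8 (0.051 and 0.07) and Cdc7 without normoxia 3 (0.077). Pttg1 also lost its call with no filter on low values (0.056).

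Some genes that hold cells out of the cycle were also higher in hypoxia. Of 16 CDK inhibitor and pocket protein genes 5 were higher and 1, Rb1, was lower, beside 13.6% higher and 17.9% lower over all genes, with a median of 0.11. Cdkn1a, the CDK inhibitor p21, stood at 87.1, 79.6 and 89.6 in normoxia, 134, 132 and 135 in hypoxia, and 176, 169.9 and 155 with T3. Its groups did not overlap, and the log2 change was 0.64 ± 0.06 SE, adjusted p = 5.3e-05. The antiproliferative gene Btg1 (log2 change 0.65 ± 0.11 SE, adjusted p = 0.0013), Trp53, the gene of p53 (log2 change 0.42 ± 0.07 SE, adjusted p = 0.0014), and Ccng1, a p53 target (log2 change 0.45 ± 0.09 SE, adjusted p = 0.003), rose too, as did E2f5. Of 25 other radial glia and Notch genes 4 were higher, Hey1, Id1, Hopx and Sox3, and 2 lower, Id4 and Lhx2, with a median of 0.54, so the share of higher calls was near that over all genes. Hey1, a Notch effector of the same family as Hes1, stood at 9.03, 9.03 and 10.6 in normoxia, 21.02, 20.002 and 25.6 in hypoxia, and 33.9, 38.1 and 27.5 with T3, without overlap, and the log2 change was 1.13 ± 0.13 SE, adjusted p = 1.7e-04. Id1, an inhibitor of neuronal bHLH factors, had a log2 change of 0.70 ± 0.17 SE, adjusted p = 0.011, whereas Id4 had a log2 change of -0.44 ± 0.09 SE, adjusted p = 0.0037 and the cortical selector Lhx2 -0.29 ± 0.06 SE, adjusted p = 0.0062. Of 12 genes of intermediate progenitors and newborn neurons, Btg2 was higher (log2 change 1.07 ± 0.14 SE, adjusted p = 3.2e-04) and 3 were lower: Neurod1 (log2 change -0.75 ± 0.12 SE, adjusted p = 0.0014), Sox11 (log2 change -0.24 ± 0.06 SE, adjusted p = 0.014) and Dcx (log2 change -0.27 ± 0.07 SE, adjusted p = 0.019). The Dcx call was lost without normoxia 1 (0.054), normoxia 3 (0.06), hypoxia 8 (0.054) or hypoxia 9 (0.076), and with columns scaled to equal sums it was lost for Lhx2 (0.093), Sox11 (0.189) and Dcx (0.111).

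T3 added to hypoxia left no gene of the 38 past the threshold. Against hypoxia alone 0 were called higher and 0 lower (limma, adjusted p under 0.05), where 2.49% of all genes were called higher and 3.31% lower. On recovered reads edgeR called 0 of 38 and DESeq2 0 of the 33 to which it gave an adjusted p. At an unadjusted p under 0.05 there was 1, Pcna, in each of the 3 tests. In limma 1670 of all 13853 genes were higher at that p and 1991 lower. The log2 changes ran from -0.40 for Cenpe, the kinetochore motor CENP-E, to 0.38 for Kif20a, a cytokinesis kinesin, with a median of 0.05 and a median standard error of 0.31. With a standard error of that size a missing call does not show that levels were alike. The number above 0 was 21 of 38 in limma and 17 of 38 in edgeR, with a median of -0.03 in the latter. It was 7 without hypoxia 7 or without T3 12, and 32 without hypoxia 9 or without T3 13. In 0 of the 38 did the T3 values all lie above or all below the hypoxia values, against 15.3% and 15.2% of all genes.

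The 4 highest log2 changes, all above 0, belonged to a replication gene and 3 mitotic genes. Pcna had means of 55.5 ± 4.09 in hypoxia and 67.9 ± 8.29 with T3, with a log2 change of 0.28 ± 0.12 SE, adjusted p = 0.16. T3 11 and T3 12 were above every hypoxia value and T3 13 was below hypoxia 9. Kif20a stood at 2.37, 3.56 and 5.002 in normoxia, 4.24, 4.41 and 6.496 in hypoxia, and 6.93, 8.25 and 5.397 with T3, with a log2 change of 0.38 ± 0.22 SE, adjusted p = 0.3. Aurka, the centrosomal Aurora A kinase, stood at 2.71, 3.35 and 4.25 in normoxia, 3.899, 4.76 and 6.33 in hypoxia, and 6.18, 7.49 and 4.91 with T3, with a log2 change of 0.27 ± 0.19 SE, adjusted p = 0.4. Plk1, the polo-like kinase that drives mitotic entry, stood at 2.79, 4.41 and 6.82 in normoxia, 4.92, 7.38 and 9.01 in hypoxia, and 8.53, 10.1 and 7.23 with T3, with a log2 change of 0.27 ± 0.25 SE, adjusted p = 0.54. In Kif20a the T3 libraries 11 and 12 were above every hypoxia value and T3 13 lay below hypoxia 9. In Aurka and Plk1 only T3 12 was above every hypoxia value, and both T3 11 and T3 13 lay below hypoxia 9. Mki67 had means of 23.3 ± 12.03 and 20.9 ± 5.71, Hes1 of 1.93 ± 0.555 and 1.87 ± 0.571, and Mcm7 of 24.3 ± 2.76 and 23.2 ± 2.64, each apart by less than the SD of either group.

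In the wider lists of cell cycle, progenitor and newborn neuron genes T3 gave 4 calls against hypoxia. Over all genes 2.49% were called higher and 3.31% lower. At those shares few or no calls fall in lists of this size, and no difference between lists was tested. Against hypoxia 0 of 32 replication genes, 0 of 36 G2/M genes and 0 of 10 G1 drivers were called. Of the 16 inhibitor genes 2 were higher, Cdkn1a (log2 change 0.31 ± 0.06 SE, adjusted p = 0.023) and Btg1 (log2 change 0.52 ± 0.11 SE, adjusted p = 0.028), of the 25 radial glia and Notch genes 1, Hey1 (log2 change 0.55 ± 0.13 SE, adjusted p = 0.037), and of the 12 newborn neuron genes Neurod1 was lower (log2 change -0.47 ± 0.12 SE, adjusted p = 0.05). Each of these 4 calls was lost without hypoxia 7, hypoxia 8, T3 11 or T3 12, with adjusted p from 0.069 to 0.109 for Cdkn1a, 0.068 to 0.112 for Btg1, 0.098 to 0.148 for Hey1 and 0.111 to 0.187 for Neurod1. Hey1 also lost its call without normoxia 2 (0.053), and Neurod1 without any library other than hypoxia 9. All 4 calls were lost with no variance trend (0.065 to 0.078), and those of Btg1, Hey1 and Neurod1 with no filter on low values (0.058, 0.072 and 0.09). Of the 12 neuron markers, Nefl was higher with T3 than in hypoxia alone and Tubb3 lower. Nefl was called under every alternative, whereas Tubb3 lost its call under several, such as without hypoxia 7 or T3 12.

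Hypoxia with T3 against normoxia, which shares its control libraries with the first comparison and its T3 libraries with the second, called mitotic genes as well as replication genes. Of the 38, 8 were higher and 0 lower (limma, adjusted p under 0.05), beside 24.7% and 27.8% of all genes. With all 9 libraries the share of higher calls was thus near the background here too. The median log2 change was 0.56 against 0.01 over all genes, and 34 of the 38 were above 0. Without normoxia 1 the median was 0.21, with 30 above 0, and without normoxia 3 it was 0.91. At an unadjusted p under 0.05 there were 14 higher and 0 lower, beside 3911 higher and 4187 lower of all 13853 genes. In 8 genes all T3 values lay above all normoxia values, against 29.4% of all genes, and in 0 all lay below, against 31.4%.

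The 8 called were 2 replication genes, 3 mitotic genes, 1 nucleotide gene and 2 progenitor genes. Pcna had the smallest adjusted p, with means of 42.4 ± 7.33 in normoxia and 67.9 ± 8.29 with T3 (log2 change 0.67 ± 0.12 SE, adjusted p = 6.9e-04). Mcm7 had 15.003 ± 3.95 and 23.2 ± 2.64 (log2 change 0.62 ± 0.16 SE, adjusted p = 0.0067). Every T3 value of both was above every normoxia value. Aurka rose from 3.44 ± 0.776 to 6.19 ± 1.29 (log2 change 0.70 ± 0.19 SE, adjusted p = 0.0089), Kif20a from 3.65 ± 1.32 to 6.86 ± 1.43 (log2 change 0.78 ± 0.22 SE, adjusted p = 0.011) and Plk1 from 4.67 ± 2.03 to 8.63 ± 1.46 (log2 change 0.82 ± 0.25 SE, adjusted p = 0.019). The lowest T3 value of these 3 mitotic genes was above the highest normoxia value. Tyms, thymidylate synthase, which makes the thymidine precursor for DNA, stood at 5.74, 6.43 and 7.15 in normoxia, 6.89, 8.59 and 9.54 in hypoxia, and 9.698, 10.01 and 8.08 with T3. Its T3 values did not overlap normoxia (log2 change 0.46 ± 0.13 SE, adjusted p = 0.013), while hypoxia 7 did, and hypoxia alone gave a log2 change of 0.32 ± 0.13 SE, adjusted p = 0.088. Hes1 had means of 0.561 ± 0.306 and 1.87 ± 0.571 (log2 change 0.88 ± 0.20 SE, adjusted p = 0.004). Nes had the largest change of the 8 on the log2(value + 1) scale, which understates changes of low genes such as Hes1. It went from 17.3 ± 13.2 to 43.8 ± 17.6 (log2 change 1.56 ± 0.55 SE, adjusted p = 0.033), with T3 13 just below normoxia 3. Ccnb2 did not overlap and missed the threshold (log2 change 0.49 ± 0.20 SE, adjusted p = 0.056), and so did Mcm6, whose groups overlapped (log2 change 0.32 ± 0.13 SE, adjusted p = 0.059). Mki67 was not called (log2 change 1.03 ± 0.63 SE, adjusted p = 0.19).

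**Figure D4:**
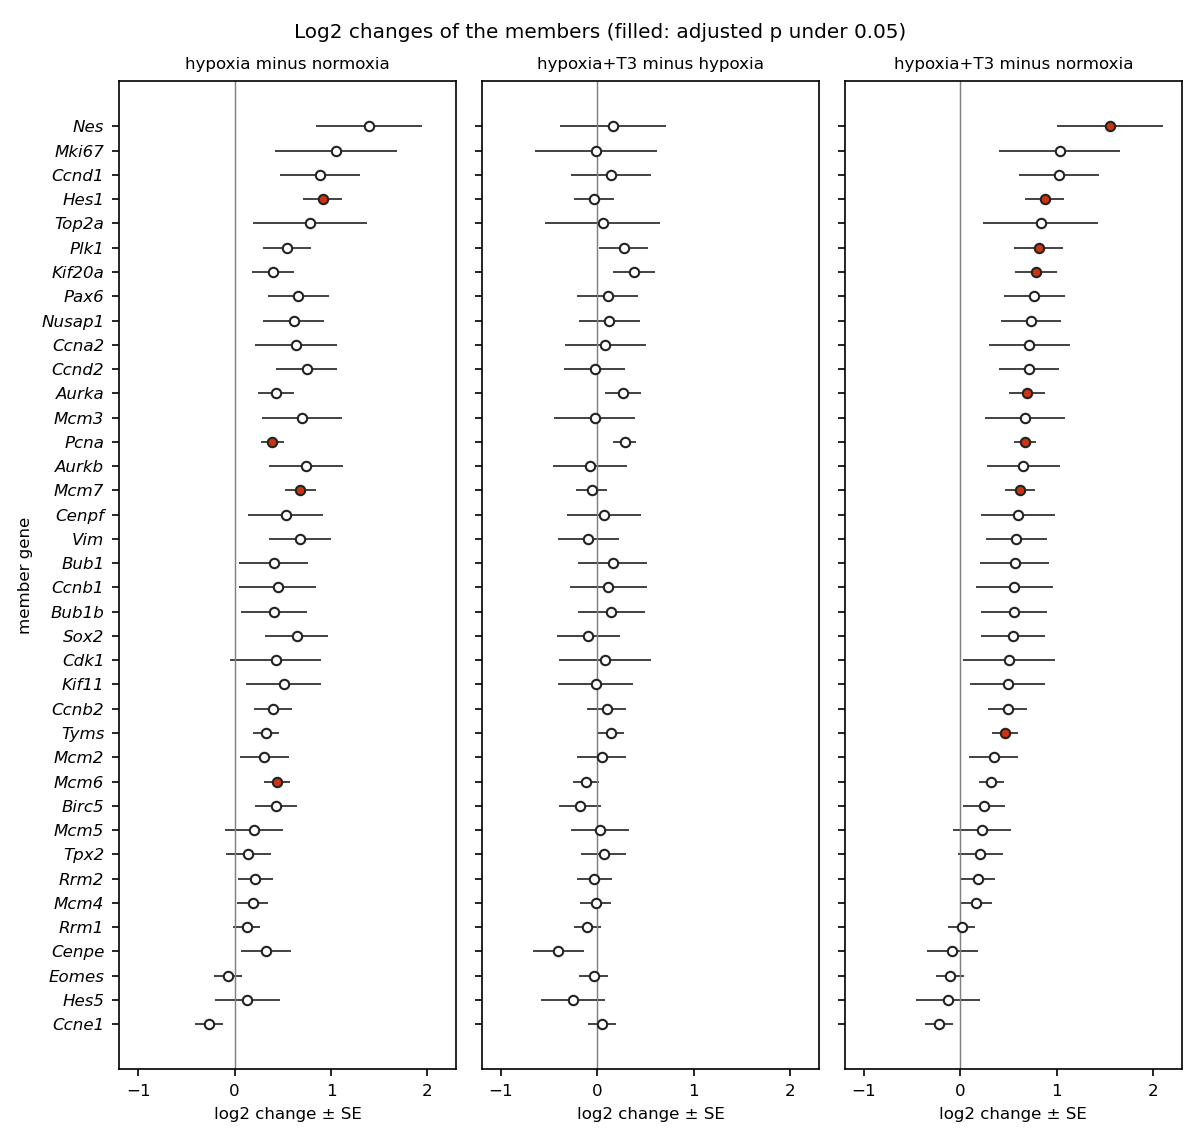
Log2 change of each of the 38 genes in the 3 comparisons, with standard errors, ordered by the change in hypoxia with T3 against normoxia. Filled points passed an adjusted p of 0.05: 4 in hypoxia against normoxia, 0 in hypoxia with T3 against hypoxia and 8 in hypoxia with T3 against normoxia.

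The count of 8 was 25 without normoxia 3, where 37 of the 38 passed the filter, and 5 without T3 12. Over all genes 3198 of 13786 were higher without normoxia 3 and 2698 of 13779 without T3 12. Without normoxia 3 the share among the 38 was thus above that of all genes. Pcna, Hes1, Mcm7, Aurka and Kif20a were called under each of the 21 alternatives, those with a library left out included. Nes lost its call without normoxia 1 (adjusted p = 0.118), normoxia 2 (0.053), T3 11 (0.059) or T3 12 (0.12), in edgeR (0.053) and DESeq2 (0.106), and with no filter on low values (0.071) or no variance trend (0.061). Plk1 lost it without normoxia 1 (0.075) or T3 12 (0.071), and Tyms without T3 12 (0.053). Aurka, Plk1, Kif20a, Tyms and Nes were called in this comparison and not in hypoxia against normoxia. Their differences between hypoxia with T3 and hypoxia were themselves not called, with adjusted p of 0.4, 0.54, 0.3, 0.55 and 0.89.

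The other cell cycle lists gave more calls here, as did all genes together, at 24.7% higher and 27.8% lower. Of the 32 replication and G1/S genes 12 were higher and 2 lower. Slbp (log2 change 0.88 ± 0.10 SE, adjusted p = 5.0e-05) and Dut (log2 change 0.64 ± 0.08 SE, adjusted p = 6.4e-05) were among the higher ones. The lower ones were the polymerase subunit Pola1 (log2 change -0.64 ± 0.16 SE, adjusted p = 0.0059) and the ligase Lig1 (log2 change -0.24 ± 0.09 SE, adjusted p = 0.033). Lig1 lost its call with columns scaled to equal sums (0.228), and without normoxia 2 (0.105), normoxia 3 (0.073), T3 11 (0.062), T3 12 (0.069) or T3 13 (0.083). Of the 36 G2/M genes 11 were higher, a share near that over all genes, and 0 lower, among them Ncapd2 (log2 change 0.37 ± 0.10 SE, adjusted p = 0.007), Pttg1 (log2 change 0.47 ± 0.12 SE, adjusted p = 0.0079), Kif4 (log2 change 0.85 ± 0.24 SE, adjusted p = 0.013) and the spindle protein Ckap2 (log2 change 1.17 ± 0.33 SE, adjusted p = 0.012). Kif4 lost its call without normoxia 1 (0.053) or T3 12 (0.058), and Ckap2 without T3 12 (0.054). Of the 10 G1 drivers 2 were higher and 2 lower, of the 16 inhibitor genes 7 and 1, of the 25 radial glia and Notch genes 6 and 2, and of the 12 newborn neuron genes 2 and 4. Cdkn1a (log2 change 0.96 ± 0.06 SE, adjusted p = 1.0e-06) and Hey1 (log2 change 1.69 ± 0.13 SE, adjusted p = 3.4e-06) had every T3 value above every normoxia value. Of the astrocyte markers 2 of 10, Ndrg2 and Aldoc, were higher in hypoxia than in normoxia, and Ndrg2 and Aldoc were higher in hypoxia with T3. Of the 7 oligodendrocyte precursor markers 0 passed in hypoxia and 1, Gpr17, passed with T3, all against normoxia. The shares of all genes called higher were 13.6% in hypoxia against normoxia and 24.7% in hypoxia with T3 against normoxia.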

How the data were processed

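The deposited table holds 1 column of TMM-normalized CPM per library, a signal that the authors scaled, and the build mm10 and the tools Bowtie2 2.1.0, RSEM 1.2.15 and edgeR (no version) are named, per the submitters' processing notes. The annotation and filters are not given in the sources used here. Column sums of 945822 to 1091200 differ from plain CPM. In each column 99.84% to 99.99% of nonzero values were whole multiples of the value of 1 read (within 0.01 reads), which gave 17182339 to 33937842 reads per library, and intervals from these would cover counting error only. Values off this step occurred in 35 gene rows and in none of the 38. Libraries were grouped by column header, and 1 unnamed column of values was not used.

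Genes with a value above 0.5 in at least 3 libraries (13853) were fitted in R 4.3.3 with limma 3.58.1 on log2(value + 1), a trended eBayes fit of all 9 libraries with 6 residual degrees of freedom. Two-sided p-values were adjusted by Benjamini-Hochberg over those 13853 genes and called at 0.05. Changes on this scale understate those of low genes. As alternatives, edgeR 4.0.16 quasi-likelihood on recovered read counts called 1844 genes higher and 2480 lower in hypoxia against normoxia, and DESeq2 1.42.0, pseudocounts of 0.1 and 5, filters, scalings, no trend and left-out libraries were run. The fit was tested on simulated data.

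The 38 genes and the gene lists were chosen with earlier results of these data known. Named are all 38, with per-library values for those called, those with the highest levels and others that show the pattern, and up to 4 genes per list with the smallest adjusted p in hypoxia against normoxia. Rb1, E2f5, Hopx, Sox3, Pola1, Lig1, Ckap2, Ndrg2, Aldoc, Gpr17, Tubb3, Syt1, Rbfox3, Elavl4 and Nefl were named after their values were seen. Exonic lengths came from GENCODE and promoters from RefSeq.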

Additional observations from a re-analysis of the deposited data

How the results depend on the processing

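Calls among the 38 genes kept their direction in every alternative, while their number did not stay the same. In hypoxia against normoxia the 4 higher became 6 with columns scaled to equal sums, which moved the median of all genes to 0.13, and 2 to 16 with 1 library left out. Of all genes 1171 to 1854 were higher with 1 library left out. The 8 of hypoxia with T3 against normoxia became 11 with equal sums, 10 with only the 2 groups fitted, and 5 to 25 with 1 library left out, where 2698 to 3443 of all genes were higher. In hypoxia with T3 against hypoxia 0 were called throughout. The sign of the log2 change differed under some alternative for 6 of the 38 genes in hypoxia against normoxia (Cdk1, Hes5, Mcm5, Rrm1 and Top2a without normoxia 1, Hes5 also without hypoxia 8, and Hes5 and Tpx2 without hypoxia 9), for 6 in hypoxia with T3 against normoxia and for 28 in hypoxia with T3 against hypoxia. None of these genes was called in the comparison named. In the first, over left-out libraries, Top2a ran from -0.000597 to 1.43 and Cdk1 from -0.13 to 0.89. Leaving out both normoxia 1 and hypoxia 7 was chosen after seeing the data. Over all genes, equal sums gave 4035 higher and 1240 lower in hypoxia against normoxia (76.5% higher, against 43.1%), hypoxia 9 left out gave 1171 higher, and both libraries left out gave 1187 and 1480. For T3 against hypoxia the 345 higher and 458 lower became 93 and 79 without a filter, 76 and 97 without a trend, 138 and 119 with only the 2 groups, 735 and 971 in DESeq2, 19 to 700 and 12 to 1082 with 1 library left out, and 29 and 10 with both out. The cause was not tested. Equal sums gave 61.9% higher in hypoxia with T3 against normoxia, against 47.1%, and 29.8% in T3 against hypoxia, against 43.0%. No paired analysis was possible because the hypoxia and T3 columns carry numbers 7 to 9 and 11 to 13, which match no replicate number of the titles. Low depth limits Hes5, Hes1, Eomes, Cdk1 and Pax6, where single values rest on 3 to 7 reads.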

Other observations

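The balance between mitotic and replication genes differed among the libraries of a group. The summed level of the 8 spindle, kinetochore and chromosome genes divided by that of the 7 helicase and clamp genes was 0.338, 0.623 and 0.801 in normoxia 1 to 3, 0.402, 0.789 and 0.788 in hypoxia 7 to 9, and 0.537, 0.704 and 0.570 in T3 11 to 13. Normoxia 1 and hypoxia 7, whose levels of the 38 genes were the lowest of their groups, also had the lowest ratios of their groups, whereas with T3 library 13 had the lowest level and library 11 the lowest ratio, and the 3 groups overlapped. Both sums come from the same libraries and share their scaling, and the ratio was not tested between groups.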
